A study of Drosophila melanogaster with 4 samples.

Results

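DNA replication and S phase genes were described in eye discs of Drosophila melanogaster pupae, as 40 listed genes of which 34 were measured, out of 11982 named genes on the array. The members were picked out by gene symbol from a list of replication genes that was drawn up with earlier results of these data known, and 33 were found under the listed symbol while CDC45L was found under its current symbol, Cdc45. Each of the 34 had 1 probe set (the array's unit of measurement for a transcript) that carries that symbol alone. Mcm7, Orc3, Orc6, geminin, RnrS and dap were not analysed here, Orc3 because its probe set carries several symbols. The probe sets of CycE and Cdk2 have names ending in _s_at, the manufacturer's mark for probe sets whose probes can match transcripts of more than 1 gene, so signal from another gene cannot be told apart there.

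The Yki discs came from animals with GMR Gal4 and UAS Yki, which overexpress Yorkie (Yki), the coactivator that Hippo signalling holds back, and the control discs came from animals with GMR Gal4 alone. Both groups therefore carried the GMR driver, which expresses the yeast activator Gal4 in differentiating cells of the eye, and no UAS transgene is given for the controls. All animals were kept at 29 °C until about 40 h after pupariation, and total RNA of whole discs was labelled and hybridised to Affymetrix arrays, with 2 arrays for Yki discs and 2 for control discs. The labels call the arrays biological replicates but do not say how many animals each one pooled. With 4 arrays in all, the precision of each value is limited by their number.

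Before a chromosome is copied, the origin recognition complex (Orc) and the loaders Cdc6 and Dup place the ring-shaped Mcm helicase on DNA, and geminin holds the loaders in check. In S phase, Cdc45 and the GINS complex switch that helicase on, the clamp PCNA is set on the DNA by a clamp loader, replication protein A (RPA) covers the single strands, and CAF-1 packs the new DNA with histones. Cyclin E with Cdk2 starts S phase, and transcription factors of the E2F family with their partner Dp drive or, when bound by Rbf, repress many of these genes. Cells of the retina have for the most part left the cell cycle by the pupal stage studied here. Yki is known for promoting growth and division in imaginal discs, and CycE is one of its known targets.

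The deposited intensities had been scaled alike on every array, with a median over non-control probe sets of 81.1 and 100.7 on the Yki arrays and 79.4 and 97.2 on the control arrays, so that arrays with the same replicate number had the closer medians. Log2 values correlated at 0.973 between the Yki arrays, at 0.975 between the control arrays and at 0.945 to 0.962 across groups. The overexpressed gene separated the groups, with yki at 26417 and 26183 on the Yki arrays, against 1285 and 1261 on the control arrays. Eye tissue was evident from photoreceptor and neuron genes, of which 8 of 9 listed were measured. Their summed intensities were 33858 and 42024 on the Yki arrays and 14668 and 17012 on the control arrays. Pdh alone had 20071 and 25451 on the Yki arrays and 7797 and 6693 on the control arrays.

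Every one of the 34 measured replication and S phase genes was lower in Yki discs, as 51.0% of all genes were, and none of them passed an adjusted p of 0.05 over all genes. On the log2(intensity + 16) scale the median difference, Yki minus control, was -1.15 (a 2.21-fold lower level), beside a median of -0.01 over all 11982 genes. Both Yki arrays lay below both control arrays for 34 of 34 genes, a pattern that 25.2% of all genes show. An unadjusted limma p under 0.05 with a lower level in Yki discs was reached by 27 of 34, against 8.07% of all genes. Both Yki arrays lay at least 2-fold below both control arrays for 12 of 34, against 2.32% of all genes. With 1 array left out, which leaves fewer pairs to satisfy, that count was 12 to 22 of 34 (3.66% to 4.44% of all genes). In whole discs, fewer cells of a type and less RNA per cell cannot be told apart.

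The adjusted limma p of the 34 genes ran from 0.108 to 0.787, where 0.0835% of all genes passed in the lower direction. With the median of each array subtracted, 14 of the 34 passed as lower, among them Mcm5, PCNA, Psf1 and Mcm3, against 3.41% of all genes. In that setting the moderation gave every probe set the same SD of 0.42, so the calls there rank genes by the size of the difference alone. With 2 arrays a group, the smallest two-sided p of an exact permutation test is 0.333. With any 1 of the 4 arrays left out, all 34 genes stayed below 0, the median lay between -1.29 and -0.98, and 19 to 26 genes had an unadjusted limma p under 0.05. That was 26 without Yki replicate 1, 23 without Yki replicate 2, 19 without control replicate 1 and 22 without control replicate 2, against 8.14%, 5.89%, 4.99% and 5.69% of all genes in the same fits.

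**Figure D1:**
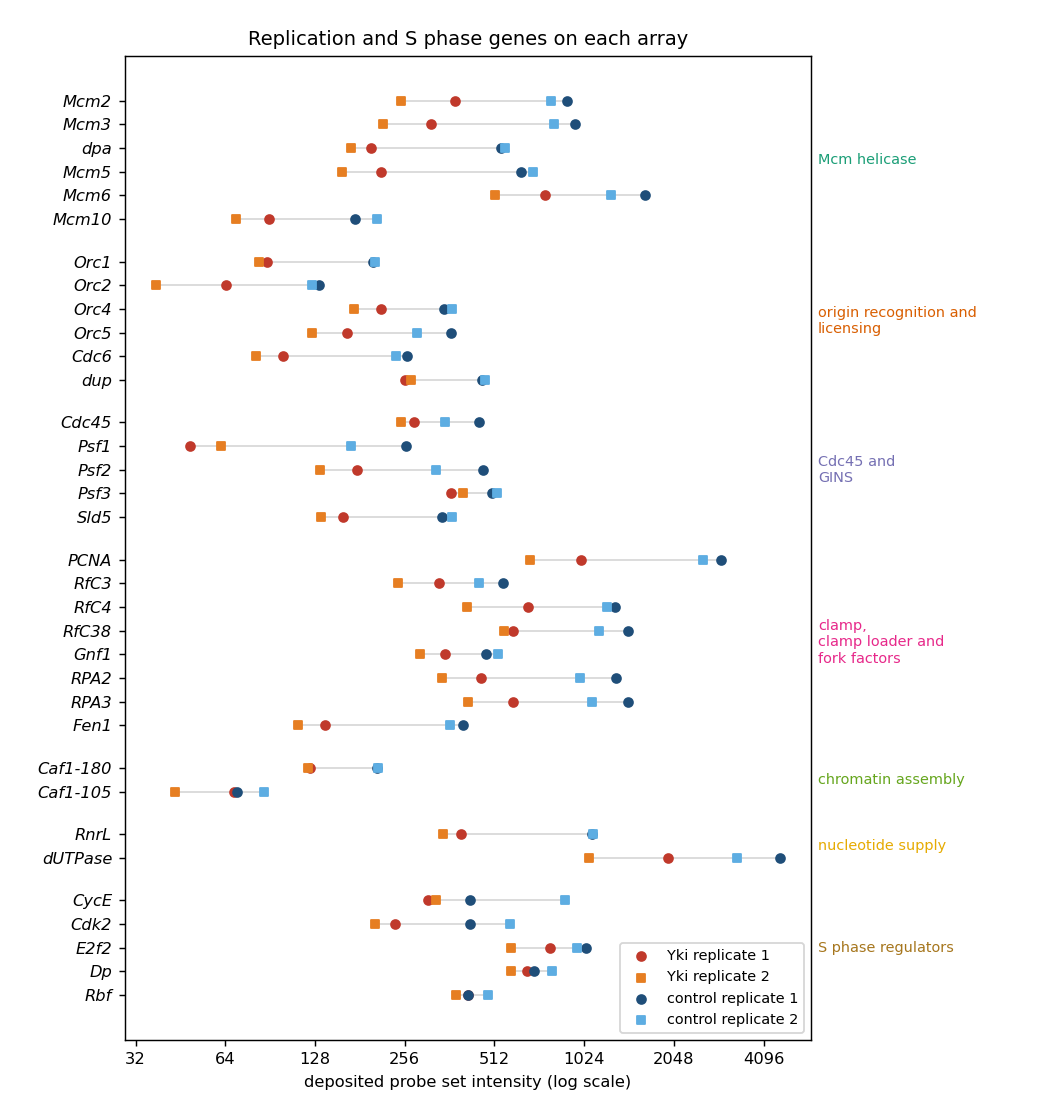
Deposited probe set intensity (log axis) of the 34 measured replication and S phase genes, grouped by role, with red and orange points for the 2 Yki arrays and dark and light blue points for the 2 control arrays. In every row both Yki points lie left of both control points, with wide gaps for the Mcm genes, PCNA and RnrL and almost none for Rbf, Dp and Caf1-105.

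Subunits of the replicative helicase were among the lowest. The Mcm2 to Mcm7 proteins form the ring that unwinds DNA ahead of the fork, and the 5 measured subunits had log2 differences between -1.75 and -1.18. Mcm5 had intensities of 213 and 158 on the Yki arrays, against 629 and 687 on the control arrays. Its means were 186 ± 39.1 in Yki discs and 658 ± 41.2 in control discs (SD over 2 arrays each). The log2 difference was -1.75 (SE 0.26), with an unadjusted limma p of 0.000973 and an adjusted p of 0.108. The control arrays stood clear of the Yki arrays, at roughly 3.37-fold the level on the log2(intensity + 16) scale.

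Mcm3 had 313 and 216 on the Yki arrays and 953 and 809 on the control arrays, a log2 difference of -1.69 (SE 0.28). The Mcm4 subunit, encoded by dpa, had 197 and 169 on the Yki arrays and 539 and 554 on the control arrays, a log2 difference of -1.50 (SE 0.23). In both genes the higher Yki array was less than the lower control array by more than 2-fold. Mcm2 had a log2 difference of -1.42 (SE 0.29) and Mcm6 of -1.18 (SE 0.30), and the 95% intervals of all 5 subunits overlapped one another, so no order among them can be given. Mcm10, which is not part of the ring and acts at its activation, had a log2 difference of -1.12 (SE 0.25). All 6 genes had an unadjusted limma p under 0.05 (8.07% of all genes in the lower direction), and their adjusted limma p ran from 0.108 to 0.199.

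Genes of origin recognition and loading were lower too. The median log2 difference of the 6 measured genes was -1.09, beside -1.46 for the 6 Mcm genes, a gap that was not tested. All 6 measured genes of this group had an unadjusted limma p under 0.05 (8.07% of all genes in the lower direction). Cdc6, the loader ATPase, had 99.99 and 81.4 on the Yki arrays, against 261 and 239.6 on the control arrays, a log2 difference of -1.32 (SE 0.24). Orc2 had 64.5 and 37.5 on the Yki arrays, against 133 and 125 on the control arrays, a log2 difference of -1.14 (SE 0.29). Orc1, the origin recognition subunit whose level is known to follow E2F in flies, had 88.2 and 82.9 on the Yki arrays and 201 and 204 on the control arrays, a log2 difference of -1.10 (SE 0.22).

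For Orc1 the spread between replicate arrays was small beside the gap between the groups, while for Orc2 the Yki arrays were themselves far apart. The other origin recognition subunits, Orc4 and Orc5, had log2 differences of -0.85 and -1.08. dup, the fly Cdt1 gene whose product loads the helicase with Cdc6, had -0.81 (SE 0.22). Its replicate arrays were close to each other in both groups, with means of 262 ± 8.43 in Yki discs and 472 ± 7.07 in control discs (SD over 2 arrays each).

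The genes that switch the helicase on had differences of unequal size. GINS has 4 subunits, all measured, and their log2 differences ran from -1.67 (Psf1) to -0.40 (Psf3). Psf1 had 48.7 and 61.9 on the Yki arrays, against 259 and 169 on the control arrays, a log2 difference of -1.67 (SE 0.30, adjusted limma p 0.123). Psf2 had 177 and 133 on the Yki arrays and 467 and 327 on the control arrays (log2 difference -1.26, SE 0.29). Sld5 had 159 and 134 on the Yki arrays and 340.3 and 369.7 on the control arrays (log2 difference -1.20, SE 0.23).

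Psf3 had 366 and 402 on the Yki arrays and 503 and 521 on the control arrays, a log2 difference of -0.40 (SE 0.22, unadjusted limma p 0.131). Its groups did not overlap, yet its 95% interval ran from -0.97 to 0.17 and included 0. That of Psf1 ran from -2.43 to -0.91, so the intervals of these 2 subunits overlapped only at their ends, and the difference between the genes was not tested. Cdc45, which joins GINS and the Mcm ring, had a log2 difference of -0.58 (SE 0.25, unadjusted limma p 0.0667). Psf3 and Cdc45 were the 2 of these 5 genes without an unadjusted limma p under 0.05.

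**Figure D2:**
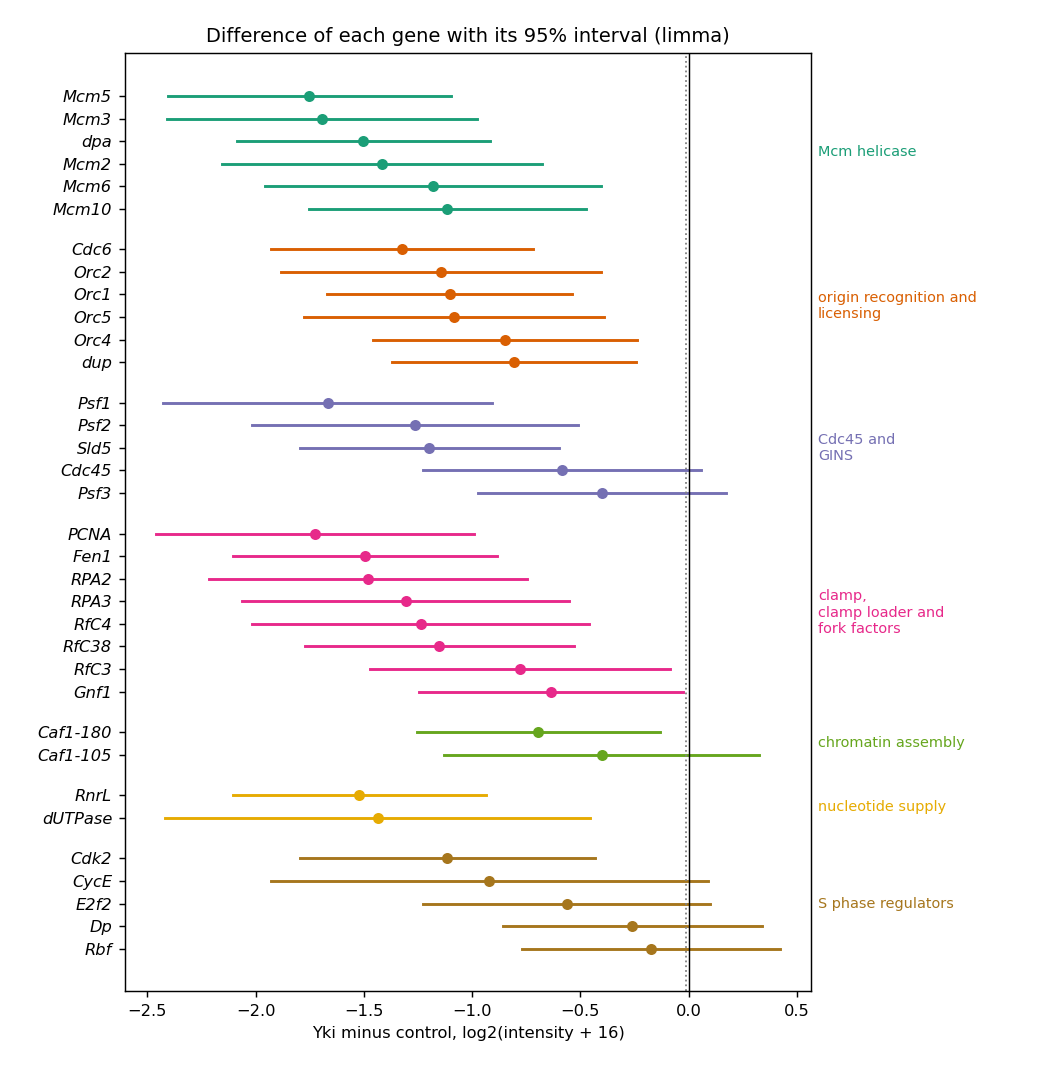
Log2(intensity + 16) difference, Yki minus control, of each replication and S phase gene (points) with its 95% limma interval (bars), grouped by role and sorted within each group; the dotted line marks the median of all named genes. The intervals of 27 genes lie wholly below 0, and those of Cdc45, Psf3, Caf1-105, CycE, E2f2, Dp and Rbf include it.

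At the fork itself all 8 measured genes had an unadjusted limma p under 0.05 (8.07% of all genes in the lower direction). Their median log2 difference was -1.27. PCNA, the sliding clamp that tethers the polymerases, had 996 and 675 on the Yki arrays, against 2949 and 2561 on the control arrays. Its means were 835 ± 228 in Yki discs and 2755 ± 275 in control discs (SD over 2 arrays each), a log2 difference of -1.73 (SE 0.29, adjusted limma p 0.114). The gap between the groups was several times the spread within either of them. Fen1, the flap nuclease that trims Okazaki fragments, had 139 and 113 on the Yki arrays, against 400.3 and 364 on the control arrays (log2 difference -1.50, SE 0.24).

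RPA2, the middle subunit of the complex that coats single-stranded DNA, had 463 and 341 on the Yki arrays and 1310.3 and 989.6 on the control arrays (log2 difference -1.48, SE 0.29). Its partner RPA3 had a log2 difference of -1.31 (SE 0.29). The 4 measured clamp loader subunits, which open PCNA and close it around DNA, had a median of -0.97. RfC4 and RfC38 had log2 differences of -1.24 and -1.15, while RfC3 had -0.78 and Gnf1, the large subunit, -0.64. The intervals of these 4 overlapped, and Gnf1, with an unadjusted limma p of 0.0434, stood just inside 0.05.

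The nucleotide supply genes resembled the fork genes in size. RnrL, the large subunit of the ribonucleotide reductase that makes deoxynucleotides, had 397 and 344 on the Yki arrays, against 1087 and 1095 on the control arrays. The log2 difference was -1.52 (SE 0.23), with an unadjusted limma p of 0.0011 and an adjusted p of 0.108. Control arrays were almost equal to each other and close to 2.87-fold above the Yki arrays. dUTPase, which keeps uracil out of DNA, had 1960 and 1063 on the Yki arrays and 4647 and 3335 on the control arrays, a log2 difference of -1.44. Its SE of 0.38 was larger than that of RnrL, because arrays of the same group were further apart.

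The 2 chromatin assembly genes among the 34 had a median log2 difference of -0.55, beside -1.15 over the 34, a gap that was not tested. Caf1-180, the large subunit of CAF-1, had 123 and 121 on the Yki arrays, against 207 and 208 on the control arrays, a log2 difference of -0.70 (SE 0.22, unadjusted limma p 0.0244). Its arrays were nearly identical within each group. Caf1-105 had 68.7 and 43.4 on the Yki arrays and 69.8 and 86.4 on the control arrays, a log2 difference of -0.40 (SE 0.28, unadjusted limma p 0.215). One Yki array and one control array of Caf1-105 were practically level, and its log2 difference was -0.66 without Yki replicate 1 and -0.15 without Yki replicate 2.

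Among regulators of S phase entry, Cdk2 and CycE differed by more than E2f2, Dp and Rbf did, and differences between these genes were not tested. Their median log2 difference was -0.56 over 5 genes, and 1 of the 5, Cdk2, had an unadjusted limma p under 0.05. Cdk2, the kinase partner of cyclin E, had 238 and 203 on the Yki arrays, against 424 and 576 on the control arrays, a log2 difference of -1.11 (SE 0.27). CycE, the S phase cyclin, had 307 and 325 on the Yki arrays and 423 and 884 on the control arrays, a log2 difference of -0.92 (SE 0.39, unadjusted limma p 0.0657). The spread of CycE lay in the control arrays, which were far apart, and the log2 difference was -0.44 within replicate 1 and -1.40 within replicate 2. It was -1.44 without control replicate 1 and -0.40 without control replicate 2.

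E2f2, the E2F that represses in flies, had 784 and 579.6 on the Yki arrays and 1038 and 971 on the control arrays, a log2 difference of -0.56 (SE 0.26, unadjusted limma p 0.0804). Dp, the shared partner of both fly E2F proteins, had 658 and 583 on the Yki arrays and 695 and 798 on the control arrays (log2 difference -0.26, 95% interval -0.86 to 0.34). Rbf, the retinoblastoma family repressor of E2F, had 417 and 381 on the Yki arrays and 418 and 488 on the control arrays (log2 difference -0.17, 95% interval -0.77 to 0.42). For Rbf one Yki array and one control array were practically level, and within replicate 1 the log2 difference was -0.01. Both intervals include 0 and also the difference measured for Psf3. With 1 array left out, E2f2 ran from -0.78 (without Yki replicate 1) to -0.35 (without Yki replicate 2) in log2 difference. Dp ran from -0.36 (without control replicate 1) to -0.16 (without control replicate 2), and Rbf from -0.28 to -0.066 with the same control arrays left out.

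**Figure D3:**
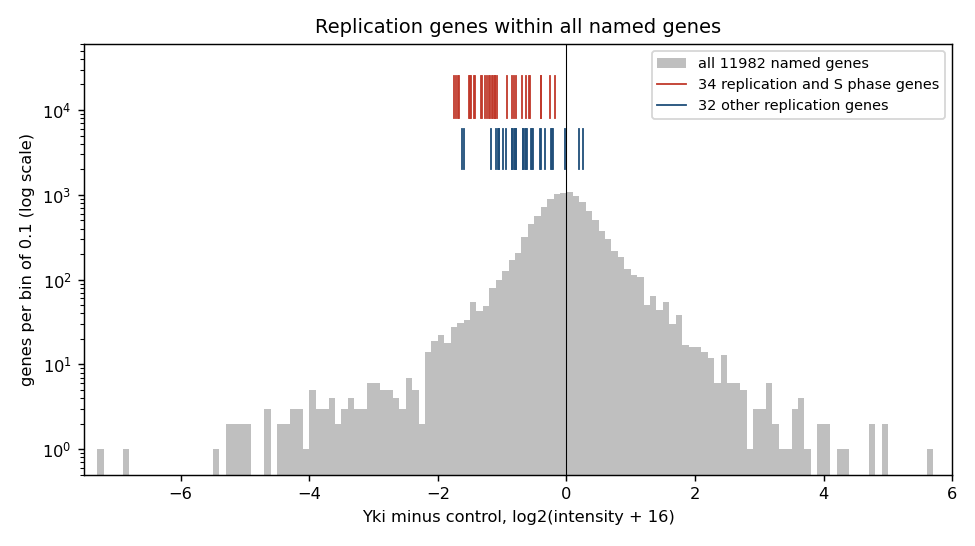
Histogram of the log2(intensity + 16) difference, Yki minus control, of all 11982 named genes (grey, log count axis), with 1 red line for each of the 34 replication and S phase genes and 1 blue line for each of 32 other replication genes. The red lines all lie below 0, from -1.75 to -0.17, on the left shoulder of the histogram and not in its far tail.

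Placed among all named genes by log2 difference, 22 of the 34 lay in the lowest 5% and 27 in the lowest 10%. The lowest was Mcm5, at percentile 1.54, and the highest Rbf, at percentile 35.8. The median percentile of the 34 was 3.71, although genes with far larger differences exist in the series, down to a log2 difference of -7.21. All 34 had a mean intensity of at least 64 over the arrays, and among the 8579 genes with such a mean 9.66% were lower at an unadjusted limma p under 0.05, and 30.2% had both Yki arrays below both control arrays.

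The Yki arrays also differed from each other in these genes. Yki replicate 2 was below Yki replicate 1 for 30 of 34 genes, where 49.8% of all genes were, with a median log2 gap of -0.28 over the 34 and 0.00 over all genes. The exceptions were dup, Psf1, Psf3 and CycE. Control replicate 2 was below control replicate 1 for 18 of 34, where 42.8% of all genes were. The median log2 difference of the 34 was accordingly -1.04 within replicate 1 and -1.31 within replicate 2, and 27 of 34 were lower by more within replicate 2. All 34 were below 0 within each replicate number, which follows from both Yki arrays lying below both control arrays. The median over all genes was -0.0036 within replicate 1 and -0.027 within replicate 2. The share of all genes lower by more within replicate 2, or below 0 within each replicate number, was not determined. Those counts therefore have no background and cannot be read as particular to the 34.

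**Figure D4:**
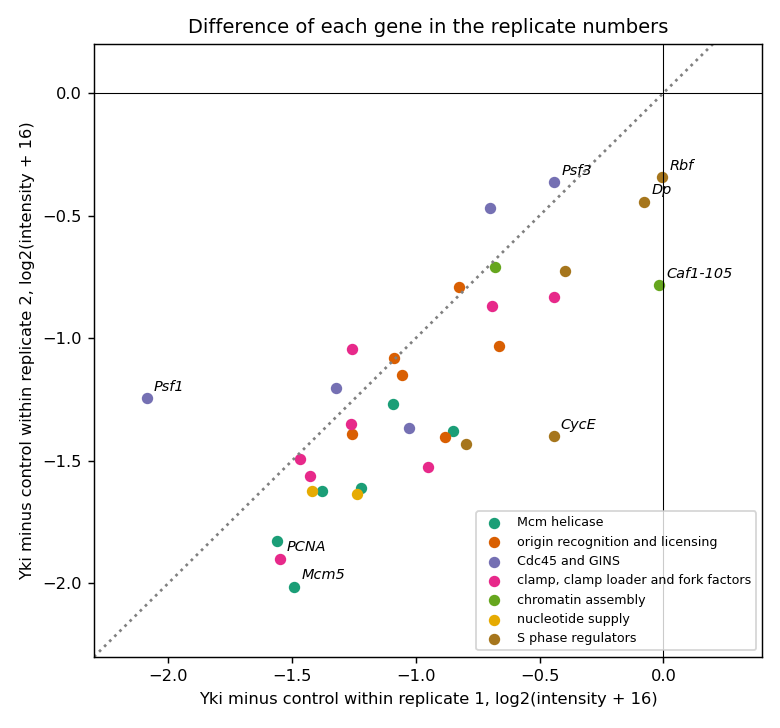
Log2(intensity + 16) difference of Yki minus control within replicate 1 (x axis) and within replicate 2 (y axis) for the 34 replication and S phase genes, coloured by role; the dotted line marks equal differences. All points lie below 0 on both axes and 27 lie under the dotted line, with Psf1 (-2.09 and -1.25) far above it and CycE (-0.44 and -1.40) far below it.

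Replication genes outside the list of 40 were set beside them from a list of 39, of which 32 were measured. In Yki discs 30 of the 32 were below the control level, as 51.0% of all genes were, 16 had an unadjusted limma p under 0.05 in that direction (8.07% of all genes) and none passed an adjusted p of 0.05. Their median log2 difference was -0.68, and 27 of 32 had both Yki arrays below both control arrays (25.2% of all genes). The count of 16 was 10 without Yki replicate 2, 8 without control replicate 1 and 10 without control replicate 2, where 5.89%, 4.99% and 5.69% of all genes had such a p. Of 9 measured polymerase and primase subunits, 7 had an unadjusted limma p under 0.05 and the median was -0.84, while PolD3 had intensities below 7 on every array, at a level too dim to compare.

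The largest differences in this list were those of Rbf2 and Ts. Rbf2, the other fly retinoblastoma family gene, had 56.1 and 32.4 on the Yki arrays, against 149.5 and 184 on the control arrays (log2 difference -1.62, SE 0.30, adjusted limma p 0.13). That is unlike Rbf in size, although the difference between the genes was not tested. Ts, the thymidylate synthase gene, had 97.6 and 127 on the Yki arrays, against 417 and 326 on the control arrays (log2 difference -1.59, SE 0.27), close to RnrL and dUTPase. The histone chaperone gene asf1 had a log2 difference of -1.17 and DNAlig1, the ligase that joins Okazaki fragments, of -1.09.

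The 2 genes of this list above the control level were PCNA2 and Cdc7, named here after their values were seen. PCNA2, a paralog of PCNA, had 359 and 202 on the Yki arrays and 206 and 267 on the control arrays, so its groups overlapped (log2 difference 0.19, 95% interval -0.70 to 1.08), and without Yki replicate 1 the difference was -0.20. Cdc7, the kinase that fires origins, had a log2 difference of 0.25 (SE 0.28, unadjusted limma p 0.416), which was -0.01 without control replicate 1. Of the subunits that complete complexes described above, RPA1 had -0.61 and Caf1-55 -0.65, neither with an unadjusted limma p under 0.05. Caf1-55 also belongs to other chromatin complexes.

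Genes of mitosis and markers of neural stem cells were lower on the same arrays. Of 12 listed mitotic genes 6 were measured, and all 6 were lower at an unadjusted limma p under 0.05 (8.07% of all genes), with a median log2 difference of -1.61. Incenp had -1.91, mad2 -1.74, aurB -1.71 and fzy -1.51, although fzy has dimmer probe sets at 0.20 and -0.61. Their summed intensity was 1730 and 1475 on the Yki arrays and 5010 and 4577 on the control arrays. None of these genes passed an adjusted p of 0.05.

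All 9 listed neuroblast and optic lobe markers were measured, 6 of them lower at an unadjusted limma p under 0.05 (8.07% of all genes) and all with a log2 difference below 0 (51.0% of all genes), with a median of -0.88. dpn, a repressor gene of neural stem cells, had 127 and 111 on the Yki arrays, against 533 and 574 on the control arrays (log2 difference -2.08, adjusted limma p 0.0792). ase had -1.79 and mira -1.67. wor had -2.003, but it was at 4.38 on Yki replicate 2, near the floor of the scale, and its difference was -2.78 without Yki replicate 1 and -1.22 without Yki replicate 2, and -3.01 with a pseudocount of 1 and -1.13 with one of 64. The markers l(1)sc and nab, which like wor count among the 6, reached at most 18.7 and 24.8 on any array. insc, brat and pros did not reach such a p, and pros changed sign with 1 array left out. The list shares pros with the cone and pigment cell list. The summed intensity of the list was 1576 and 1237 on the Yki arrays and 2505 and 3039 on the control arrays. These genes shared the direction of the replication genes between the groups, and their part in the lower replication gene levels was not tested.

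Among markers of differentiated cells, photoreceptor and neuron genes and muscle genes did not share that direction. Of 8 measured photoreceptor and neuron genes 6 were higher in Yki discs at an unadjusted limma p under 0.05 (7.19% of all genes). On the log2 scale trp had 2.06, Pdh 1.64, inaD 1.52 and inaC 0.92. elav and brp did not reach such a p, and both changed sign with 1 array left out. Of 7 measured muscle genes (10 listed) 6 were higher at an unadjusted limma p under 0.05. The log2 differences were 2.02 for up, 1.76 for Prm, 1.75 for Tm2 and 1.54 for Mlc1. The 7 had summed intensities of 20642 and 36047 on the Yki arrays and 7381 and 12583 on the control arrays. Cone and pigment cell genes went both ways. Of 8 measured, 3 were higher at an unadjusted limma p under 0.05 (7.19% of all genes), with bw at 1.49, cn at 1.41 and Cpr72Ec at 1.14. Lower at such a p were 2 (8.07% of all genes), B-H2 at -0.92 being one of them. The sums were 22681 and 26733 on the Yki arrays against 11873 and 13789 on the control arrays. The part of these shifts in the replication gene levels was not tested.

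Glial and blood cell markers showed no common direction. Among 7 measured glial genes (8 listed) 1 was higher (moody, 1.501) and 1 lower (gcm, -1.29) at an unadjusted limma p under 0.05. Of all genes, 7.19% were higher and 8.07% lower at such a p. wrapper had -0.70 and loco -0.24. The summed intensities were 16557 and 20224 on the Yki arrays against 13481 and 15478 on the control arrays. Among 7 haemocyte genes, all measured, He was lower at such a p (-1.48), with 80.3 and 53.3 on the Yki arrays against 129 and 345 on the control arrays, and its difference was -0.82 without control replicate 2. srp (-0.74), Hml (-0.73) and Pxn (0.59) did not reach such a p, and the sums were 2625 and 3086 on the Yki arrays against 2708 and 3119 on the control arrays.

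**Figure D5:**
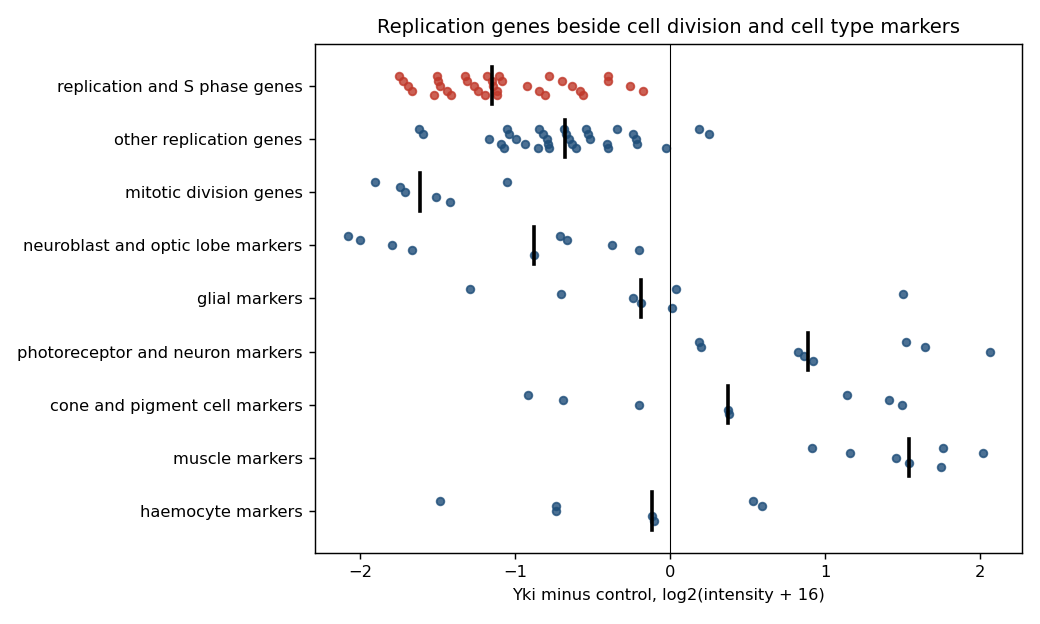
Log2(intensity + 16) difference, Yki minus control, of each measured gene (points; their vertical scatter carries no value) in the 34 replication and S phase genes (red) and in 8 comparison lists (blue), with black bars at the list medians. The medians of the replication, other replication, mitotic and neuroblast lists are -1.15, -0.68, -1.61 and -0.88, while those of the photoreceptor and muscle lists are 0.89 and 1.54.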

How the data were processed

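Total RNA from pupal eye discs was measured on Affymetrix Drosophila arrays, 1 sample per array, and the sample titles gave the group and replicate number. The authors deposited linear intensities of 18952 probe sets, made with Affymetrix Expression Console per the submitters' processing notes. The sources used here do not say how probes were summarised or called as detected. In these deposited intensities a mean trimmed by 2% at each end lay between 500.01 and 500.013 on every array.

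Probe sets were named through the platform annotation and the RefSeq gene table (Release 6 plus ISO1 MT). limma 3.58.1 in R 4.3.3 was fitted to log2(intensity + 16) over 18769 non-control probe sets, with the group as the only term. p-values were adjusted by Benjamini-Hochberg over 11982 genes, each represented by its brightest probe set with 1 symbol. A fold change on this scale understates the change of dim genes. A limma p-value weighs the group difference against the spread between these arrays, moderated towards the spread typical of all probe sets. The prior from all probe sets had 3.03 degrees of freedom, beside 2 from the gene's own arrays. SEs and 95% intervals therefore depend largely on other probe sets. No gene had an SE below 0.2187, however close its replicate arrays were. The pipeline was run on simulated data, and no rate of correct or false calls is reported from that run.

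The members, gene lists and tests were chosen with earlier results of these data known. Array values are given for the 3 largest differences of each role group and for CycE, E2f2 and PCNA. Other lists are named by their 4 largest differences. Array values of Psf3, Dp, Rbf and Pdh and the means of dup were added after their values were seen. So were RPA1, Caf1-55, PCNA2, Cdc7, elav, brp, insc, brat and pros. Sequences are not shown. Same-numbered arrays deviated from their group means with a correlation of 0.039. Alternatives were 2 other pseudocounts, an intensity filter, 2 other scalings, another moderation, another choice of probe set, the replicate number as a block and each array left out.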

Additional observations from a re-analysis of the deposited data

How the results depend on the processing

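All 34 replication and S phase genes stayed below 0 in all 12 alternatives tried. Only the 2 other scalings could have changed a sign. In the rest the sign was fixed, because both Yki arrays lay below both control arrays for all 34. Their median log2 difference lay between -1.29 and -0.98. The number with an unadjusted limma p under 0.05 was 24 to 30 in the settings that kept all 4 arrays. It was 24 with a pseudocount of 1 (5.72% of all genes) and 30 with a pseudocount of 64 (10.1%). In the settings that kept all 4 arrays no member passed an adjusted limma p of 0.05, except with array medians subtracted. There 14 did, against 3.41% of all genes in the lower direction. In the other settings with all 4 arrays 0.00% to 0.548% of the genes tested passed as lower, so a count of 0 says little about the members. The count with at least 2-fold lower values in every pair of arrays was 12 (2.32% of all genes). It became 6 with a pseudocount of 64 (1.47%), which shrinks differences by construction. It was 7 with quantile normalization (2.21%) and 7 with array medians subtracted (2.07%), where the cause was not tested. With 1 array left out, which leaves fewer pairs to satisfy, it was 12 to 22 (3.66% to 4.44% of all genes). Both Yki arrays lay below both control arrays for 33 genes with quantile normalization (25.6% of all genes) and for all 34 in the other settings. Where these kept all 4 arrays, 21.3% to 30.2% of the genes tested did so. The count of 16 among other replication genes was 8 to 17 with 1 array left out. Of 83 measured genes in the other lists, 15 changed sign in some fit with 1 array left out. Among them, of the genes whose difference is given, were PCNA2 (-0.20 to 0.58), Cdc7 (-0.0083 to 0.51) and Hml (-1.49 to 0.021). Same-numbered arrays share only a number in the labels. With the replicate block 27 of 34 members had an unadjusted limma p under 0.05 (7.76% of all genes in the lower direction). In that setting 0 passed an adjusted limma p of 0.05 (smallest 0.0894) and the median was -1.15. Intensities below 16 were found for 22.2% to 28.3% of probe sets, which limits PolD3, wor and other dim genes, and no member's mean lay there.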
